A study of Mus musculus with 4 samples.

Results

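The beating of the sperm tail rests on the axoneme, and 44 genes of the mouse for axonemal dyneins, radial spokes, CFAP proteins, tektins and the factors that assemble them were followed in single cell RNA-seq of the testis. A gene of this list counted as a member where its symbol was a row of the 4 deposited count tables. This rule used no measured value, although the list itself was drawn up with earlier results of these data known. By this rule 43 of the 25824 gene symbols in the tables were members. Of these, 41 were found under the listed symbol and 2 under older symbols, DNAI1 as DNAIC1 and DNAI2 as DNAIC2, and RSPH4A matched no row. All 43 had counts in all 4 tables.

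Cells came from the testes of 2 WT mice (Ctcf wt/wt) and 2 Ctcf-cKO mice (Stra8-iCre-Ctcf f/Δ) on the background strain that the labels write C56BL/6J, with 1 library per mouse. Ctcf-cKO mice carry 1 floxed and 1 deleted copy of Ctcf, and the Stra8-iCre transgene acts in germ cells, so somatic cells are not its target. The labels give 15 weeks as the age of every mouse, and the study design text gives a range. The labels give both WT mice as wt/wt, while the study's methods also allow WT littermates with 1 or 2 floxed copies. The mice keep the numbers of their labels, and 4 values in a row always stand for WT replicate 1, WT replicate 2, Ctcf-cKO replicate 1 and Ctcf-cKO replicate 3.

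The axoneme is a ring of doublet microtubules around a central pair. Outer and inner dynein arms, motors built of heavy, intermediate and light chains, walk along the neighbouring doublet, and the nexin-dynein regulatory complex and the radial spokes pass signals from the central apparatus to the arms. Tektins lie inside the doublets, and dynein arms are put together in the cytoplasm by assembly factors before they reach the tail. In the testis, transcripts of axonemal genes begin to build up in meiosis and continue in round spermatids, where the tail starts to grow. Factors of the RFX family bind a motif called the X-box in the promoters of many ciliary genes.

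Promoters of the members were searched for parts of motifs because the members moved together in the tables summed over all barcodes. RefSeq sequences of GRCm38.p6, from 250 bases before to 50 after each start, held 41 promoters of 38 members. GTTGCC, part of the X-box, was read on both strands and stood in 16 of these 41 promoters (39.0%) and in 12.5% of 32851 promoters of all genes. TGACGTCA, the full cyclic AMP response element, stood in 2.44% of the members' promoters and 1.79% of all. AGNNGGC, part of the core motif of CTCF, stood in 61.0% and 59.8%. A match is a description of letters and does not show binding. Of the 38 members with a promoter, 24 passed the test for lower counts in Ctcf-cKO over all barcodes. Of these 24, 12 had GTTGCC, and of the rest of the 38, which did not pass, 3 had it. A link between the motif and the lower counts was not tested, and the share in promoters of other testis genes is not given. The 150 bases before the start are shown for the 3 of the 24 in which these bases held 2 matches and no annotated exon. They are also shown for CFAP206, which had the most counts among those of the 24 without a match or an exon there. Capitals mark GTTGCC or its reverse complement GGCAAC, and each sequence is written 5′ to 3′ on the strand of its gene.
SPAG16: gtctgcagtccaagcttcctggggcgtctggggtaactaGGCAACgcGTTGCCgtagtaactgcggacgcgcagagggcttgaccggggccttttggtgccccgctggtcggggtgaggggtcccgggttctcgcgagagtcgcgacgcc
TEKT1: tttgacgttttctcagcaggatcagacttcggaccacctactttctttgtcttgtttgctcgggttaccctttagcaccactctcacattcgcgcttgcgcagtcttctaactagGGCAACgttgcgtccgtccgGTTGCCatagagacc
TEKT2: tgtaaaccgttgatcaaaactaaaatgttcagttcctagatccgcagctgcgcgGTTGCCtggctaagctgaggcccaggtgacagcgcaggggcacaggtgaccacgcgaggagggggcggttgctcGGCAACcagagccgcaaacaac
CFAP206: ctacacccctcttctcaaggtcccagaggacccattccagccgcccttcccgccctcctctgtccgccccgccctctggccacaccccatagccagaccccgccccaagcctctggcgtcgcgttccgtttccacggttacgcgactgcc
The windows lie at chr1:69826820-69826969 on the forward strand for SPAG16, and on the reverse strand at chr11:72361883-72362032 for TEKT1, chr4:126325689-126325838 for TEKT2 and chr4:34730207-34730356 for CFAP206. Counted to the first base of the match, the GTTGCC or GGCAAC stood 111 and 103 bases before the start of SPAG16. It stood 35 and 15 bases before the start shown of TEKT1, and 96 and 22 before that shown of TEKT2. Both tektins have other starts, and the windows at chr11:72361297-72361446 for TEKT1 and chr4:126325436-126325585 for TEKT2 held no match. By the GENCODE annotation the TEKT1 window shown lies inside the gene, which reaches to base 72362442.

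The members lie on 16 chromosomes of GRCm38, 20 on the forward and 23 on the reverse strand. RSPH1 lies at chr17:31255019-31277383, CFAP206 at chr4:34688559-34730206, CCDC40 at chr11:119228572-119265238 and TEKT5 at chr16:10357948-10395490, by the GENCODE annotation. Exons of 17 members overlap an exon of another gene, and since the counting is not stated to use strand, their counts can hold reads of that gene. DNAH7A has near-identical copies, DNAH7B and DNAH7C, and SPAG6L has SPAG6, so their counts are uncertain.

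The tables held 1593546 to 6701235 counts per library, and both Ctcf-cKO libraries were shallower than both WT libraries. After filters, 96, 241, 228 and 246 barcodes were taken as cells, with medians of 15357, 8251, 4668 and 2338 counts. Mitochondrial genes took 0.180%, 0.254%, 2.80% and 3.46% of all counts. Of 20198 distinct barcode sequences 2716 occurred in more than 1 library, and 1 of 810 among cells. Ctcf, the targeted gene, had 16.4, 10.1, 1.51 and 4.39 CPM (counts of a gene scaled to a common library total) over all barcodes, lower in both Ctcf-cKO mice, from 110, 49, 4 and 7 counts. In the germ-like cells it had only 10, 24, 0 and 4 counts, or 8.60, 10.2, 0 and 15.1 CPM. There the genotypes overlapped, with Ctcf-cKO replicate 3 highest. A 3′ tag checks the deletion only if it lies in the deleted part, which is not stated in the sources used here.

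Cells were clustered without the members and without 134 other axoneme genes. A cluster was named from marker lists. This gave 59 spermatocyte-like cells (SYCP3 and other meiotic genes), 212 round spermatid-like cells (acrosomal genes such as ACRV1) and 110 elongating spermatid-like cells. The elongating spermatid-like cluster rested on 4 markers, none among its 10 leading genes. These 3 classes are called germ-like together and held 41, 213, 79 and 48 cells. A further cluster of 184 cells had 16 markers of elongating spermatids but was led by haemoglobin genes, among them HBB-BS and HBA-A1, and by mitochondrial genes. It is called the haemoglobin-led cluster and was given no cell type. Haemoglobin lay almost only in its Ctcf-cKO cells, by the shares given below, so the name does not describe its WT cells. It was left out of the germ-like class, and a cluster of 30 cells also stayed unnamed. The somatic-like class held 11, 9, 88 and 108 cells in 4 clusters. Leydig, macrophage and fibroblast markers led 3 of them, while the fourth, of 61 cells, had 12 Sertoli and 9 macrophage markers and was led by H2-EB1, H2-AB1, CD74 and H2-AA, with 4 macrophage and 3 Sertoli markers among its 10 leading genes. Clustering gave 1 of the 3 round spermatid-like clusters no cell of WT replicate 1.

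Members peaked in spermatocyte-like or round spermatid-like cells. The mean over the 4 mice was highest in round spermatid-like cells for 25 members and in spermatocyte-like cells for 18, and in the elongating spermatid-like or haemoglobin-led cells for 0. In each of the 4 mice, 33 of the 43 members had their highest level in one or the other of the first 2 classes, and 40 did so in at least 3 mice. The remaining 3 were DNAH2, SPEF1 and TEKT5, whose peak lay elsewhere in 2 of the 4 mice. No test was run between classes, since they came from the same cells and libraries. Such counts over all genes are not given, so the peak is not shown to be particular to the members.

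The radial spoke genes split between these classes, with RSPH1 and RSPH6A highest on average in spermatocyte-like and RSPH9 in round spermatid-like cells. RSPH9 had 106, 227, 102 and 73.4 CPM in spermatocyte-like and 259.98, 216, 217 and 227 in round spermatid-like cells, which were higher in 3 of 4 mice. RSPH1, a head protein of the spoke, had 2902, 2902, 2170.4 and 1296 CPM there, and 843, 904, 910.2 and 841 in round spermatid-like cells. It was highest in spermatocyte-like cells in all 4 mice. In elongating spermatid-like cells it had 88.8, 773, 356 and 506 CPM, with WT replicate 1 far below the other mice. Of the dynein heavy chains, the motor subunits of the arms, 4 of 6 had their highest mean in spermatocyte-like cells. DNAH8, an outer arm heavy chain of sperm, had 774, 355, 265 and 660.5 CPM in these cells and 168, 117, 152 and 92.5 in round spermatid-like cells. The spermatocyte-like cells were higher in every mouse. CCDC40, which with CCDC39 sets the repeat length along the doublet, had 339, 121, 33.9 and 122 CPM in spermatocyte-like and 12.7, 27.1, 30.3 and 16.8 in round spermatid-like cells. Here the gap was wide in 3 mice and small in Ctcf-cKO replicate 1. SPAG6L, a central apparatus protein, had 590.1, 543, 210.2 and 563 CPM in spermatocyte-like cells against 222, 216, 141 and 362 in round spermatid-like cells.

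Tektins and the adenylate kinases, enzymes that balance the adenine nucleotides along the tail, had the later peak. All 5 tektins and both adenylate kinases had their highest mean in round spermatid-like cells. TEKT4 had 541, 486, 466 and 740.4 CPM there, against 29.02, 295, 197 and 147 in spermatocyte-like and 32.7, 270.2, 90.5 and 95.4 in elongating spermatid-like cells. TEKT1 had 745, 456, 498 and 471 in round spermatid-like cells against 174, 291, 203 and 220.2 before and 81.8, 94.8, 90.5 and 143 after. In both genes round spermatid-like cells stood highest in all 4 mice. AK8 had 459.7, 329, 247 and 614 CPM in round spermatid-like cells, and 116, 221, 224 and 196 in spermatocyte-like cells, which is a small gap in Ctcf-cKO replicate 1. DNAH3, an inner arm heavy chain, was the clearest of the dyneins with a late peak, at 132, 58.996, 54.2 and 278 CPM in round spermatid-like cells and 29.02, 20.5, 13.6 and 0 in spermatocyte-like cells. CFAP206, a protein at the base of a spoke, had 793, 996, 407 and 1003 CPM in spermatocyte-like and 1024, 808, 893 and 1565 in round spermatid-like cells. Round spermatid-like cells were higher in 3 of 4 mice, by most in Ctcf-cKO replicate 1.

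**Figure D1:**
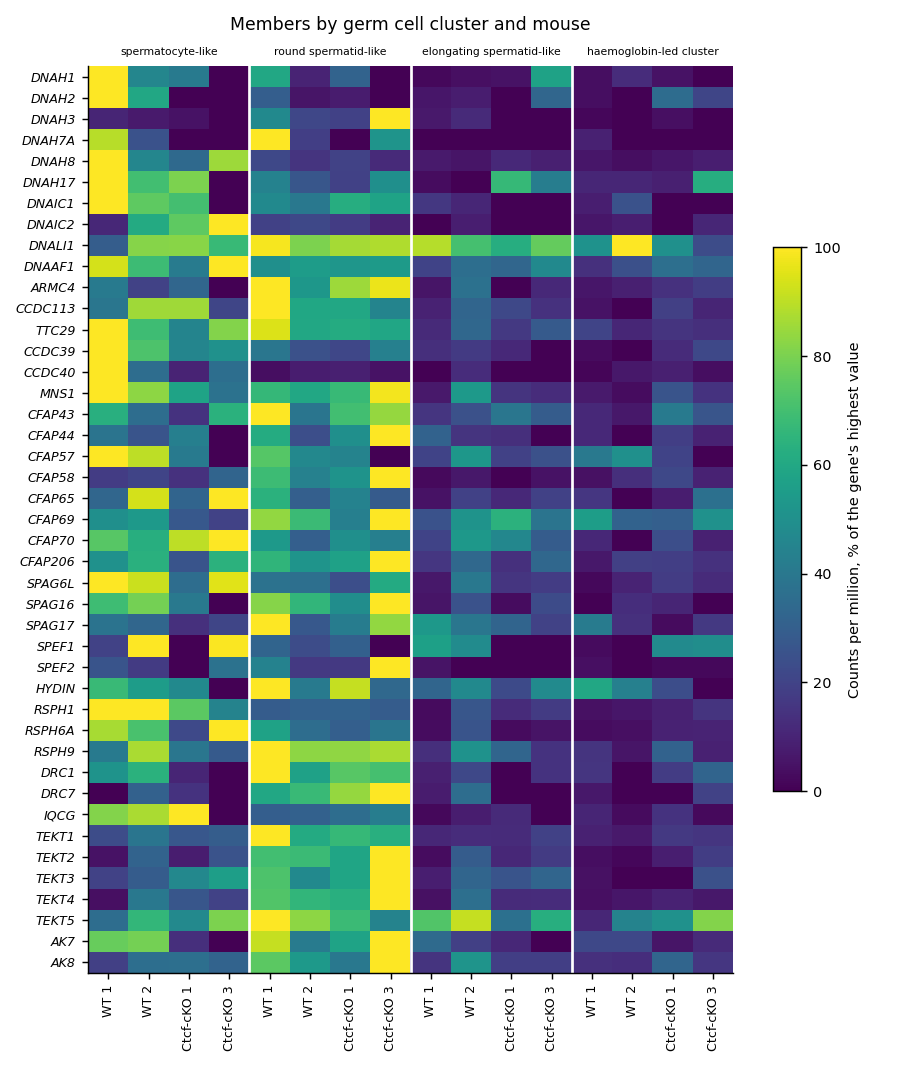
Level of each of the 43 members (rows) in spermatocyte-like, round spermatid-like, elongating spermatid-like and haemoglobin-led cells of each mouse (columns), as CPM in percent of the highest value of that gene. Bright cells sit in the 2 left blocks for most genes, and RSPH1 and the tektins TEKT1 to TEKT4 show the earlier and the later peak.

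DNALI1 and TEKT5, chosen after their values were seen, had much of their round spermatid-like level in elongating spermatid-like cells too. DNALI1, a light intermediate chain of the inner arm, had 322, 256, 226 and 277 CPM in elongating spermatid-like cells, near its 358, 291, 314 and 319.7 in round spermatid-like cells. TEKT5, a tektin of the sperm tail, had 178, 223, 90.5 and 153 in elongating spermatid-like and 244, 202, 167 and 109 in round spermatid-like cells, so the order differed between mice. DNAH2 and SPEF1, at far lower levels, had means of 13.7 and 12.9 CPM in elongating spermatid-like against 12.5 and 10.6 in round spermatid-like cells. Free RNA gives counts in droplets of every kind, and somatic-like cells carry no motile tail. The members together took 0.252%, 0.362%, 0.243% and 0.315% of the counts of somatic-like cells. In the haemoglobin-led cluster their share was 0.187%, 0.208%, 0.294% and 0.291%, no higher than the somatic-like range. In elongating spermatid-like cells it was 0.236%, 0.537%, 0.305% and 0.377%, overlapping that range. In spermatocyte-like cells the share was 1.08%, 1.10%, 0.726% and 0.837%, and in round spermatid-like cells 1.06%, 0.788%, 0.816% and 1.13%, above every somatic-like value. Barcodes under 200 genes, which hold free RNA, gave 0.907%, 0.646%, 0.420% and 0.477%.

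Cells were also compared at a common depth of 1000 counts. A round spermatid-like cell showed a median of 8.54, 5.45, 5.32 and 5.64 members after thinning, and a spermatocyte-like cell 2.36, 6.39, 4.71 and 5.07, of which WT replicate 1 had only 5 cells. An elongating spermatid-like cell showed 2.25, 4.03, 2.15 and 2.49, leaving out 1 shallower cell, and a somatic-like cell 1.46, 2.84, 1.64 and 1.80, leaving out 1. Without thinning the medians were 34.5, 16, 14 and 8.5 in round spermatid-like cells, where median depths ran from 2955 to 38599 counts. Unthinned medians were 9, 22, 14 and 10 in spermatocyte-like, 11.5, 9, 5 and 4 in elongating spermatid-like and 7, 9, 3.5 and 3 in somatic-like cells.

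**Figure D2:**
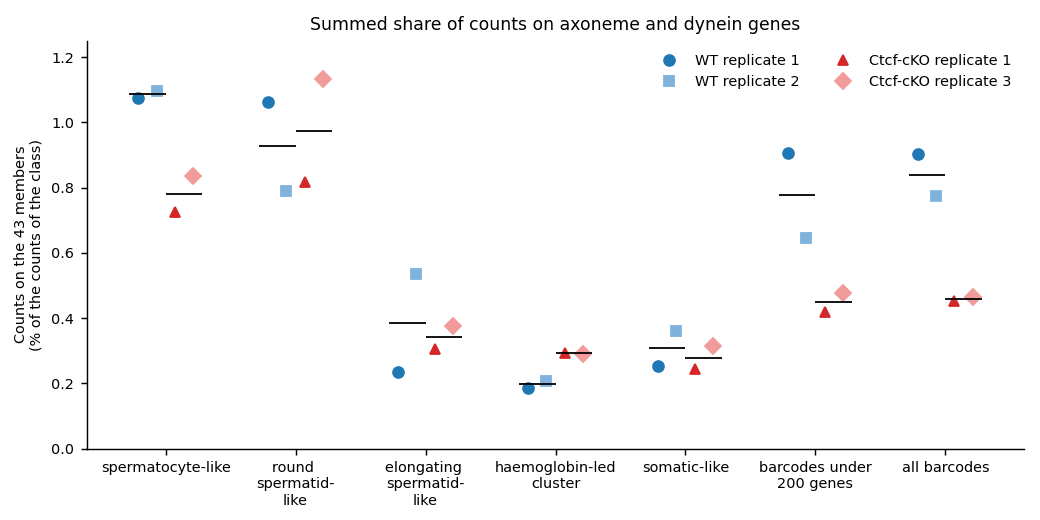
Summed share of counts on the 43 members (vertical axis, percent of the counts of the class) in each class and mouse, with a line at the mean of each genotype. WT and Ctcf-cKO mice lie apart over all barcodes, in barcodes under 200 genes, in spermatocyte-like cells (lower in Ctcf-cKO) and in the haemoglobin-led cluster (higher in Ctcf-cKO).

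The first comparison between genotypes summed every barcode of each table, which rests on no cell filter and no clustering. In these sums fewer cells of a type and less RNA per cell cannot be told apart. Axonemal genes were lower in Ctcf-cKO: of 43 members, 29 were lower by the quasi-likelihood test of edgeR at a Benjamini-Hochberg adjusted p under 0.05 over all genes, and 0 were higher. Over all 14552 genes tested, 10.1% were lower and 18.4% were higher. The median log2 fold change was -0.94 over the members and -0.04 over all genes. Members together took 0.902%, 0.773%, 0.453% and 0.463% of the counts. Both Ctcf-cKO mice lay below both WT mice for 41 members, as did 33.8% of 18835 genes with at least 10 counts, and above them for 0, against 29.3%. Barcodes under 200 genes gave 27 below (23.6% of genes) and 2 above (27.7%).

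Among the heavy chains, 4 of 6 were lower. DNAH8 had 265, 190.1, 99.9 and 118 CPM, a log2 fold change of -0.998 ± 0.22 (SE) with an adjusted p of 0.00616 in edgeR. DNAH3 had 117, 52.9, 22.2 and 38.3, a log2 fold change of -1.44 ± 0.38. Its WT mice differed from each other by more than WT replicate 2 did from Ctcf-cKO replicate 3. DNAH1, an inner arm chain needed for the tail to form, had 59.1, 29.2, 15.1 and 11.9 CPM. DNAH7A, an inner arm chain, had 33.0, 9.67, 3.77 and 7.53, and with -1.90 ± 0.63 the lowest log2 fold change among the members. Its near-identical copies leave the level uncertain. DNAH2 (-0.97 ± 0.37, adjusted p = 0.0689 in edgeR) and DNAH17 (-0.57 ± 0.37, adjusted p = 0.272) did not pass the test.

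Of the intermediate and light intermediate chains, DNAIC1 and DNAIC2 were lower and DNALI1 did not pass. DNAIC1, an intermediate chain of the outer arm, had 57.3, 32.1, 18.5 and 17.6 CPM, a log2 fold change of -1.24 ± 0.37. DNAIC2, its partner in the arm, had 47.8, 49.4, 18.5 and 23.2, a log2 fold change of -1.17 ± 0.32. Both WT mice stood about alike for DNAIC2 and well above both Ctcf-cKO mice. DNALI1 had 305, 287, 202 and 219 CPM (-0.43 ± 0.18, adjusted p = 0.104 in edgeR).

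All 7 members of the group called assembly and docking factors were lower. The group also holds proteins of the doublet such as MNS1. Of 18 other assembly and docking factors tested, 4 were lower. CCDC40 had 72.4, 70.6, 21.5 and 22.6 CPM, a log2 fold change of -1.63 ± 0.29 (adjusted p = 0.00176 in edgeR), which was 3.10-fold higher in WT. Within each genotype its mice hardly differed. CCDC39, which works with it, had 118, 73.3, 38.8 and 48.9, a log2 fold change of -1.06 ± 0.29. DNAAF1, needed to fold dynein arms in the cytoplasm, had 523, 570.2, 349 and 356, with -0.57 ± 0.18 the smallest fall of the group. MNS1, a protein inside the doublet that binds docking proteins, had 390.2, 282, 152 and 179 (-0.96 ± 0.21). For these genes the values of the genotypes did not overlap. ARMC4, a docking factor of the outer arm, had 129.5, 80.1, 58.4 and 55.9 (-0.80 ± 0.27). TTC29, found mutated in sperm tail defects, had 178, 162, 82.9 and 86.0 (-0.94 ± 0.21). CCDC113, a coiled-coil protein of the axoneme, had 316, 232, 149 and 118 (-0.97 ± 0.22).

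**Figure D3:**
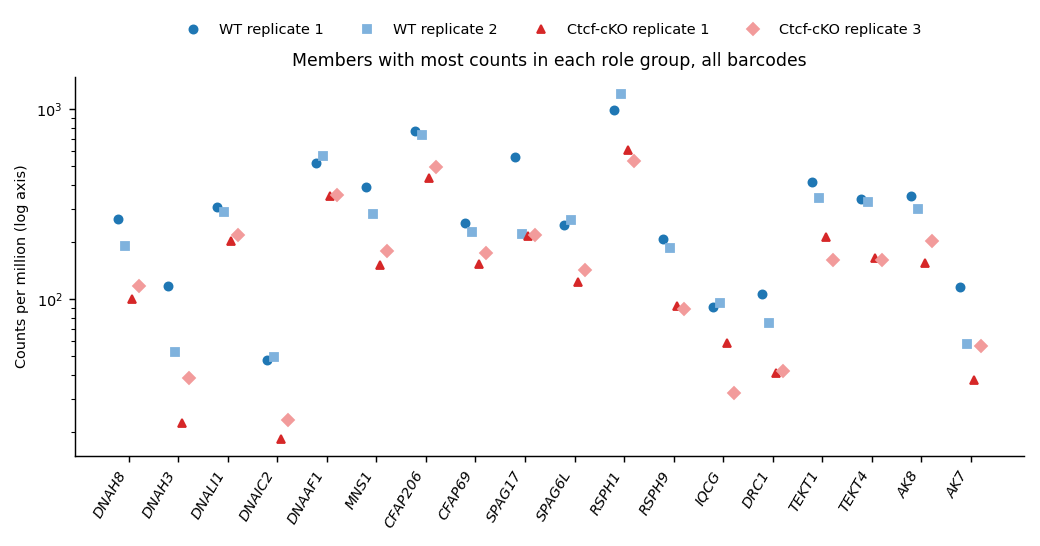
CPM over all barcodes (log axis) of the 2 members with most counts in each role group, 1 point per mouse. Ctcf-cKO points lie below WT points for the genes shown, with SPAG17 and AK7 closest, where WT replicate 2 stood next to the Ctcf-cKO mice.

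CFAP proteins, which take part in the connection of arms, spokes and doublets, were lower in 4 of 8 cases. CFAP57, an adaptor of inner arms, had 83.6, 58.6, 30.5 and 22.6 CPM, a log2 fold change of -1.34 ± 0.31. CFAP58 had 169, 119, 73.1 and 69.0 (-0.95 ± 0.24), and CFAP65 had 139.8, 84.6, 54.7 and 67.8 (-0.81 ± 0.28). CFAP206, with the most counts of the group, had 769.7, 733, 434 and 494 (-0.63 ± 0.17). It was lower by less than the others, with narrow spread in both genotypes. CFAP69, of the central apparatus, had 252, 226, 154 and 175 (-0.47 ± 0.19, adjusted p = 0.0871 in edgeR) and did not pass, nor did CFAP43, CFAP44 and CFAP70, with log2 fold changes of -0.75, -1.16 and -0.76.

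In the central apparatus, 2 of 6 were lower. SPAG16, on the microtubules of the central pair, had 106, 95.9, 35.1 and 43.3 CPM, a log2 fold change of -1.31 ± 0.26 (adjusted p = 0.00313 in edgeR). SPAG6L had 246, 262, 123 and 143 (-0.87 ± 0.20). SPAG17, a large scaffold protein, had 559.8, 219.6, 214 and 219 (-0.77 ± 0.32, adjusted p = 0.0894 in edgeR). WT replicate 1 alone stood high for it, and the other 3 mice lay together. HYDIN, SPEF1 and SPEF2 had log2 fold changes of -0.72, -0.65 and -0.81 and did not pass.

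All 3 radial spoke genes were lower. RSPH1 had 992.5, 1202, 607 and 537 CPM, a log2 fold change of -0.88 ± 0.18. RSPH9, also in the spoke head, had 207, 185, 91.6 and 89.1 (-1.05 ± 0.21), and RSPH6A, a spoke head protein of sperm, had 146, 166, 70.1 and 80.3 (-0.99 ± 0.22). Their falls were of like size. In the nexin-dynein regulatory complex, DRC1, its organiser, had 106, 75.3, 40.7 and 42.0 (-1.07 ± 0.27), and IQCG, a calmodulin-binding subunit, had 91.5, 95.7, 58.8 and 32.0 (-0.96 ± 0.30). Both were lower, while DRC7 (-0.58 ± 0.30, adjusted p = 0.175 in edgeR) did not pass.

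Of the tektins, 4 of 5 were lower and TEKT5 stood apart. TEKT1 had 416, 341, 214 and 161 CPM (-0.94 ± 0.21), TEKT2 had 266, 314, 184 and 171 (-0.65 ± 0.20), TEKT3 had 196, 154, 105 and 107 (-0.66 ± 0.21) and TEKT4 had 339, 324, 165 and 160.0 (-0.96 ± 0.19). TEKT5 had 101, 163, 119 and 136, a log2 fold change of 0.00 ± 0.26. Its genotypes overlapped, with both Ctcf-cKO mice between the WT mice. AK8 had 351, 297, 156 and 203 (-0.79 ± 0.20) and was lower, and AK7 had 116, 58.2, 37.7 and 56.5 (-0.83 ± 0.33, adjusted p = 0.0838 in edgeR). The adjusted p in edgeR of the 29 members lay between 0.00176 and 0.0445, and 10 of the 29 have an exon overlap with another gene.

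**Figure D4:**
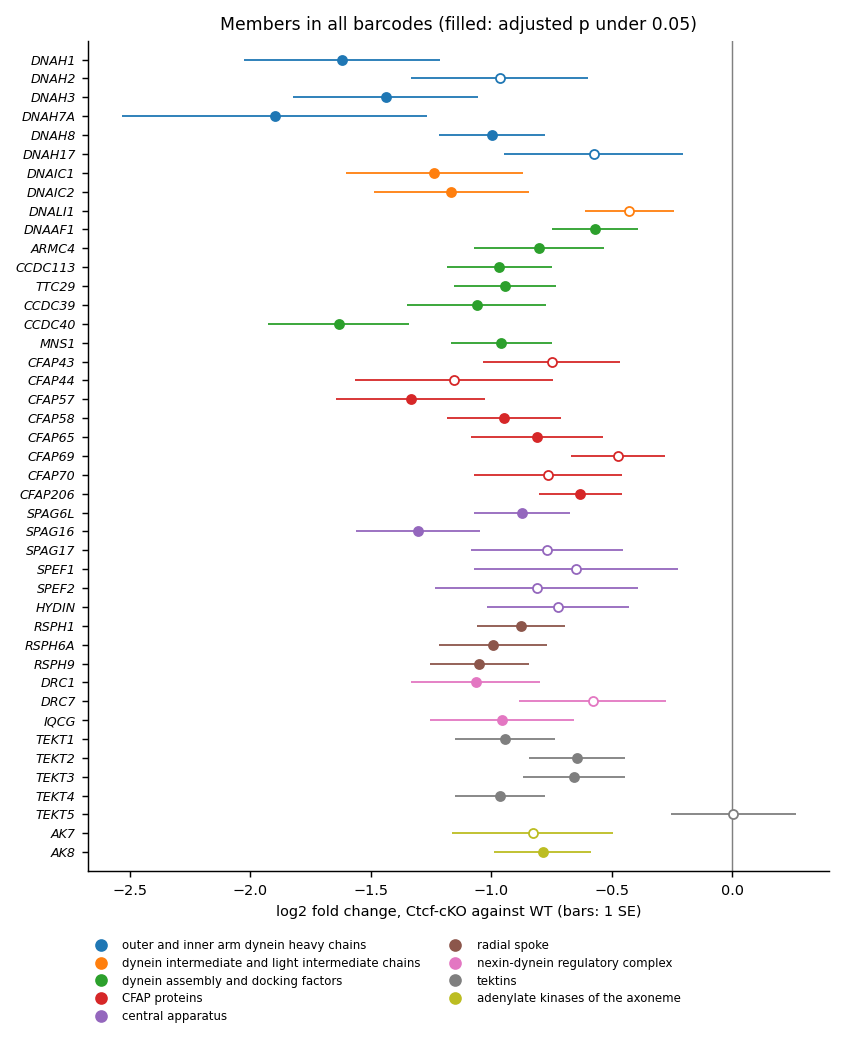
Log2 fold change of each member over all barcodes (points, bars of 1 SE), coloured by role group and filled where the adjusted p was under 0.05. All points but that of TEKT5 (0.00) lie left of 0.

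Leaving out 1 mouse moved the number of calls more than the size of the fall. Without Ctcf-cKO replicate 1, 5 members passed (CCDC40, CFAP57, CFAP70, IQCG and TEKT1), as did 337 of all genes in the lower direction, and the members' median log2 fold change was -0.91. Without Ctcf-cKO replicate 3, 3 passed (CCDC40, DNAH3 and SPAG16) beside 371 genes, with a median of -0.95. CCDC40 was in both sets, at -1.62 and -1.68. Without WT replicate 1, 20 passed beside 971 genes (median -0.75), and without WT replicate 2, 39 beside 1966 genes (median -1.13). Of the 29 members that passed with all mice, 0 changed sign in these fits.

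Most markers of round spermatids, spermatocytes and duct epithelium moved with the members, and those of Leydig, Sertoli and macrophage cells moved the other way. Of 20 round spermatid markers 18 were lower in both Ctcf-cKO mice, and together they took 0.878%, 0.815%, 0.491% and 0.496% of all counts. Of 21 spermatocyte markers 18 were lower, at 0.202%, 0.217%, 0.118% and 0.111% together. All 14 Leydig markers and all 14 macrophage markers were higher, the former at 0.0778%, 0.0464%, 0.847% and 0.773%. Markers of elongating spermatids took 8.50%, 11.9%, 12.0% and 12.3%. Of 7 markers of multiciliated duct epithelium, which also carries axonemes, 5 were lower, at 0.0592%, 0.0529%, 0.0406% and 0.0339%, and FOXJ1 among them is also a spermatid gene. Over all barcodes the members had 1.03, 0.948, 0.922 and 0.935 counts for each count on round spermatid markers, lower in both Ctcf-cKO mice. This ratio was higher in both Ctcf-cKO mice over all cells, at 0.766, 0.903, 0.906 and 0.915. It was also higher in barcodes under 200 genes, at 0.928, 0.887, 0.933 and 0.945. For each count on spermatocyte markers the members had 4.47, 3.56, 3.83 and 4.16 over all barcodes, and the genotypes overlapped. For each count on elongating spermatid markers they had 0.106, 0.0650, 0.0378 and 0.0378, lower in both Ctcf-cKO mice. Over all cells that ratio was 0.0323, 0.0585, 0.0406 and 0.0351, and the genotypes overlapped. No scaling to elongating spermatid markers was run.

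Scaled to the markers of round spermatids or of spermatocytes, few members passed the test. With the counts on round spermatid markers in place of library totals, 1 member, CCDC40, was lower (-0.92, adjusted p = 0.0283 in edgeR) and 0 were higher, and the median log2 fold change of the members was -0.23 against 0.67 over all genes, of which 143 were lower and 5137 higher. With spermatocyte markers 0 were lower and 1, TEKT5, was higher (0.83, adjusted p = 0.0257 in edgeR), while 75 of all genes were lower and 5369 higher, and the medians were -0.15 and 0.75. Each scaling thus moved the median of all genes up from -0.04. Under the first scaling 33 members and under the second 29 still had a fitted change below 0. Both scalings were chosen after the data were seen.

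Within cell classes no member passed the test. The count was 0 by edgeR and by DESeq2 in germ-like, spermatocyte-like, round spermatid-like, elongating spermatid-like and somatic-like cells, and at an unadjusted p under 0.05 it was also 0 in each by both tools. In germ-like cells all 43 were tested and 0 passed, with 0.0% of 8781 genes lower and 1.22% higher. The lowest adjusted p of a member in edgeR was 0.571. The members' median log2 fold change was -0.15, against -0.03 over all genes. Both Ctcf-cKO mice lay below both WT mice for 13 members and above for 3, at a background of 21.6% and 19.0% of genes. A p that misses the threshold here does not show equal levels, since standard errors reached 1.32 on the log2 scale for DNAH7A.

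At the ends of the order in germ-like cells stood genes of low counts. DNAH7A had 40.4, 11.9, 0 and 15.1 CPM (-2.37 ± 1.32), DNAH2 had 31.8, 19.9, 5.09 and 15.1 (-1.57 ± 0.86) and SPEF1, which binds and bundles microtubules of the central pair, had 19.8, 20.3, 8.91 and 7.56 (-1.25 ± 0.83). TEKT3 had 193, 185, 215 and 291 (0.38 ± 0.28), CFAP70, of the outer arm, had 85.2, 76.7, 111 and 90.7 (0.32 ± 0.36) and SPEF2, a central apparatus protein, had 74.0, 39.8, 25.5 and 132 (0.30 ± 0.66). None of these 6 passed. CCDC40, lower over all barcodes by 1.63 on the log2 scale, had 37.0, 47.9, 24.2 and 26.5 CPM in germ-like cells (-0.78 ± 0.57, adjusted p = 0.722 in edgeR), with both Ctcf-cKO mice below both WT mice.

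In spermatocyte-like cells 28 members were tested and 0 passed, with 0.0% of 3161 genes lower and 1.2% higher. The members' median was -0.45 and that of all genes -0.10, and 21 of 28 had a fitted fall. Their summed share was 1.09% ± 0.014 in WT and 0.782% ± 0.078 in Ctcf-cKO (SD, n = 2 each), and the genotypes did not overlap. With 2 mice against 2, an exact permutation test cannot give a p under 0.333, so none is given. Radial spoke genes took 0.333%, 0.339%, 0.235% and 0.174% and the assembly and docking factors 0.256%, 0.203%, 0.143% and 0.183%, both lower in Ctcf-cKO, whereas the tektins, at 0.0416%, 0.112%, 0.0780% and 0.1003%, overlapped. RSPH1, at the values given above for these cells, had a log2 fold change of -0.71 ± 0.52. Beside this, spermatocyte markers took 0.819%, 0.514%, 0.416% and 0.298% of the counts of the class, with 13 of 21 lower in both Ctcf-cKO mice, and Leydig markers 0.0155%, 0.0404%, 1.19% and 0.790%. Their part in the lower share was not tested. Both Ctcf-cKO mice lay below both WT mice for 16 members (25.2% of genes) and above for 3 (13.3%). The class held 5, 30, 13 and 11 cells.

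In round spermatid-like cells 41 members were tested and 0 passed, as did 0.0% of 6527 genes in either direction. By edgeR 82 genes were lower and 138 higher at an unadjusted p under 0.05, and none of these was a member. The members' median log2 fold change was -0.07 and that of all genes -0.05, with 23 fitted lower. Both Ctcf-cKO mice lay below both WT mice for 3 members, as did 2331 of 11670 genes, and above for 4 (12.9%). TEKT5 had 244, 202, 167 and 109 CPM (-0.70 ± 0.43), with both Ctcf-cKO mice below both WT mice. CFAP206 had 1024, 808, 893 and 1565 (0.31 ± 0.35), and WT and Ctcf-cKO values overlapped. The WT cells of this class came mostly from WT replicate 2, with 16, 145, 39 and 12 cells.

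In elongating spermatid-like cells 20 members were tested and 0 passed, with 0.0% of 2783 genes lower and 0.431% higher, and in somatic-like cells 21 were tested and 0 passed, as did 0.0% of 4290 genes in either direction. SPAG17 in the former had 311, 228, 187 and 114 CPM (-0.87 ± 0.52, adjusted p = 0.815 in edgeR). Both Ctcf-cKO mice lay below both WT mice for 8 of 37 members with at least 10 counts in elongating spermatid-like cells (17.2% of genes) and above for 4 (20.1%), and in somatic-like cells for 4 of 39 (12.8%) and 3 (29.7%). In the haemoglobin-led cluster 13 were tested and 0 passed, while 0.853% of 2344 genes were lower and 13.0% higher. SPAG17 had -1.71 with all mice, and passed there as lower with WT replicate 2 left out (-2.56) or with Ctcf-cKO replicate 3 left out (-3.48). At an unadjusted p under 0.05 edgeR counted 2 members higher there and DESeq2 0. TEKT2 had the highest fitted value there, at 27.8, 14.5, 64.5 and 138.7 CPM (1.97 ± 0.78, adjusted p = 0.139 in edgeR). In this cluster haemoglobin took 0.000293%, 0%, 1.75% and 0.182% of counts and mitochondrial genes 0.00688%, 0.0341%, 1.28% and 1.63%, and markers of elongating spermatids fell from 27.5% and 28.3% in WT to 18.3% and 17.6%. Both Ctcf-cKO mice lay above both WT mice for 16 of 35 members in this cluster (37.9% of genes) and below for 4 (13.2%). The part of haemoglobin and mitochondrial RNA in the higher member share was not tested. With this cluster added to the germ-like cells 0 of 43 members passed (1 when any mouse was left out: RSPH1 without WT replicate 1, SPAG17 without WT replicate 2, CFAP57 without Ctcf-cKO replicate 1 and DNAH7A without Ctcf-cKO replicate 3, each lower), with 0.232% of 9919 genes lower and 5.12% higher, and both Ctcf-cKO mice lay below for 8 (19.5%) and above for 3 (24.2%). Over all 811 cells 1 of 43 members was lower, CFAP57 (-1.48, adjusted p = 0.04998 in edgeR), with 3.21% of 11539 genes lower and 16.0% higher. This call lay at the threshold: DESeq2 called TEKT1 instead (-0.85, adjusted p = 0.0400), 4 members passed without a filter on low genes (CCDC113, CFAP57, SPAG17 and TEKT1), and leaving out a mouse gave 17, 8, 3 and 1 members, in the order of the mice. There both Ctcf-cKO mice lay below both WT mice for 19 members (23.3% of genes) and above for 0 (33.0%).

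**Figure D5:**
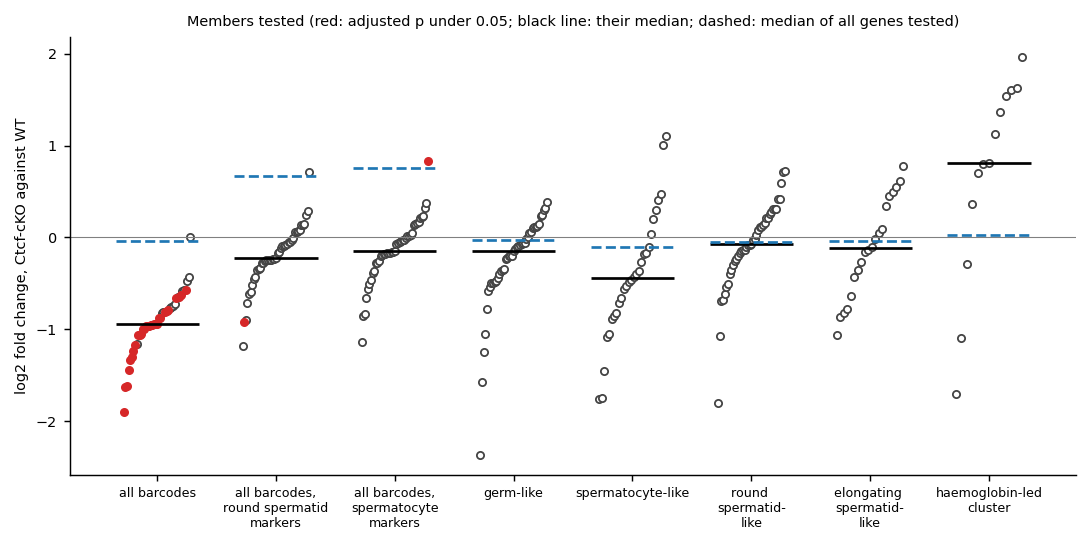
Log2 fold change of each member tested (points, ordered by value within a comparison) over all barcodes, over all barcodes scaled to germ cell markers, in germ-like cells and their 3 classes, and in the haemoglobin-led cluster, with the median of the members (line) and of all genes tested (dashed). Red points passed the test, which is 29 over all barcodes, 1 under each marker scaling and 0 in the others.

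Among the other axoneme genes more were lower than higher. Over all barcodes 54 of 131 tested were lower and 2 higher, and their median log2 fold change was -0.79. Other CFAP and inner doublet proteins had 16 lower of 29 tested, other central apparatus and spoke genes 8 of 15, other dynein chains 6 of 17 regulators of ciliary and spermatid genes 6 of 14 and other assembly factors 4 of 18. Of the genes for intraflagellar transport, which carries parts into growing cilia, 6 of 18 were lower and 1 was higher. Lowest were DNAH7C, a near-identical copy of DNAH7A, with 18.1, 8.44, 0.754 and 1.26 CPM (-3.68 ± 0.79), OVOL1, a transcription factor of germ cells (-3.13 ± 0.93), and EFHB, a protein inside the doublet, with 149, 55.8, 31.7 and 19.5 CPM (-1.90 ± 0.42). The 2 higher genes were IFT20, also a protein of the Golgi, with 89.5, 80.1, 187 and 194 CPM (1.23 ± 0.21), and TUBB3, a tubulin, with 2.69, 3.70, 30.2 and 45.2 (3.61 ± 0.46). Both are also expressed outside the axoneme. In germ-like, spermatocyte-like, round spermatid-like, elongating spermatid-like and somatic-like cells 0 other axoneme genes passed. In the haemoglobin-led cluster TUBA3A (2.55), IFT20 (3.83) and WDR63 (4.55) were higher, from 0 or 9 counts in WT replicate 2. There 13.0% of all 2344 genes tested were higher. Over all 811 cells 7 other axoneme genes were lower, by most in DNAH7C (-3.42), DNAH12 (-2.08) and SAXO1 (-1.22). TUBB3 (3.78) and IFT20 (1.49) were higher. Of all 11539 genes tested over these cells, 3.21% were lower and 16.0% higher. The number of other axoneme genes tested is not given for either comparison.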

How the data were processed

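Single cell RNA-seq libraries of the testis were made with the ddSEQ droplet system from 2 WT and 2 Ctcf-cKO mice. The authors deposited 1 table of raw counts per mouse, with genes as rows and cell barcodes as columns, on GRCm38 per the submitters' processing notes. The counting tool, its use of strand and whether reads with the same molecular identifier were merged are not given in the sources used here, so a count may be a read or a molecule. The most frequent count above 0 was 4 in the table of Ctcf-cKO replicate 1 and 1 in the others, so dividing by 4 was tried as an alternative. Members and gene lists were chosen with earlier results of these data known.

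Barcodes with 200 to 7000 genes, at most 10% mitochondrial counts and more counts than 3 times the plateau of their library were taken as cells (limits of 4351.5, 2383.5, 1299 and 910.5 counts). Doublets marked by Scrublet (7, 12, 6 and 26) were kept. Cells were clustered in Seurat 5.3.0 with 2000 variable genes, 15 components, a rewritten Harmony correction by mouse and resolution 0.9. For each class, the cells of a mouse were added up where it had 5 or more. WT and Ctcf-cKO sums were compared with the quasi-likelihood test of edgeR 4.0.16 (TMM, filterByExpr) in R 4.3.3, with Benjamini-Hochberg adjustment over all genes tested and a threshold of 0.05. The script was tested on simulated data. SE was derived from the F statistic of each gene. DESeq2 1.42.0, other scalings, filters, cell limits and clusterings, and leaving out each mouse, were alternatives. Values per mouse are given for the members with most counts in each role group (up to 2), those that passed a test, and the 3 lowest and 3 highest in germ-like cells. The other members named, and stage levels, were chosen after their values were seen. Counting error alone limits values from few counts. The p-values rest on the spread between 2 mice a group, which edgeR draws toward a trend over all genes. Cluster names were rebuilt here from marker lists.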

Additional observations from a re-analysis of the deposited data

Results flagged for a closer look

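In 6 cases a member moved in opposite directions in a pair of classes, in that both Ctcf-cKO mice lay on one side of both WT mice in the first class and on the other side in the second. None of these differences was tested. Among all genes with at least 10 counts, both Ctcf-cKO mice often lay apart from both WT mice. They lay below for 25.2% in spermatocyte-like, 2331 of 11670 in round spermatid-like and 17.2% in elongating spermatid-like cells. They lay above for 13.3% in spermatocyte-like cells, 12.9% in round spermatid-like cells and 37.9% in the haemoglobin-led cluster. Opposite pairs over all genes are not given, so the 6 cases are not shown to be particular to the members. DNAIC2 had a log2 fold change of -0.54 in round spermatid-like and 1.10 in spermatocyte-like cells, a gap of 1.64. MNS1 had -0.86 in spermatocyte-like and 0.27 in round spermatid-like cells, a gap of 1.13, and 1.61 in the haemoglobin-led cluster, a gap of 2.47 from spermatocyte-like cells. RSPH1 had -0.71 in spermatocyte-like cells and 1.12 in the haemoglobin-led cluster, a gap of 1.83. TEKT5 had -0.70 in round spermatid-like and -0.78 in elongating spermatid-like cells against 1.36 in the haemoglobin-led cluster, gaps of 2.06 and 2.14. No single one of these changes passed the test of edgeR in its class. In groups of 2 mice no sample could be examined as an outlier.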

How the results depend on the processing

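Over all barcodes 29 members passed, beside 1477 of all genes in the lower direction. The count of members was 26 by DESeq2 (1169 genes lower), 21 with counts divided by 4 (1018) and 38 without a filter on low genes (2183). It was 1 under each scaling to spermatocyte or round spermatid markers. Leaving out 1 mouse gave 3 to 39. With markers of spermatocytes and of round spermatids, log2 fold changes turned to 0.17 and 0.08 for CFAP206, 0.23 and 0.14 for DNAAF1, 0.16 and 0.06 for TEKT2 and 0.13 and 0.06 for TEKT3, and with spermatocyte markers to 0.01 for AK8. Of all calls over all barcodes 35.6% were lower, against 46.0% without a filter, 2.71% with round spermatid and 1.38% with spermatocyte markers. Over all genes the alternatives gave 75 to 2183 lower and 1373 to 5369 higher over all barcodes, and 0 to 502 higher in germ-like cells against 107. In elongating spermatid-like cells 0 to 1 members passed when a mouse was left out (RSPH1, higher, without WT replicate 2), and 1 with Scrublet doublets out (RSPH1, higher) or members kept in the clustering (SPAG17, lower). In somatic-like cells 0 to 1 passed when a mouse was left out (RSPH1, higher, without WT replicate 2). In germ-like cells SPEF2 had -1.16 to 1.11 when a mouse was left out, -0.42 above the knee, -0.03 with at least 500 genes and -0.04 at resolution 0.5. CFAP70 had -0.02 above the knee, -0.02 with as many barcodes as the study counts, -0.05 with at least 500 genes and -0.07 without Scrublet doublets. The member share, Ctcf-cKO minus WT, was -0.059 points in germ-like cells, and -0.136 above the knee, -0.133 with as many barcodes as the study counts, -0.123 without Scrublet doublets and 0.183 without batch correction. In spermatocyte-like cells it was -0.304, and -0.208 with counts divided by 4, -0.467 with as many barcodes as the study counts, -0.389 with at least 500 genes and -0.412 without Scrublet doublets. In somatic-like cells it was -0.028, and 0.068 without batch correction. The cause of these shifts was not tested. Counts divided by 4, marker scalings and tests of the haemoglobin-led cluster and of all cells were chosen after seeing the data. Too few cells were left to test spermatocyte-like cells above the knee, without batch correction or with members kept, somatic-like cells above the knee and elongating spermatid-like cells without batch correction. No paired analysis was possible because the genotypes share only replicate number 1, which no label ties to a pair.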
